A study of Mus musculus with 2 samples.

Results

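The 10 genes described here, *Ovol1*, *Ovol2*, *Grhl2*, *Grhl3*, *Esrp1*, *Esrp2*, *Zeb1*, *Zeb2*, *Snai1* and *Snai2*, encode regulators of the switch between the epithelial and the mesenchymal state of a cell. They were chosen by name, as every non-control probe of the array whose gene name is on this list. The array holds 22127 genes with a symbol, and the 10 regulators have 14 probes, with 3 of the genes (*Grhl2*, *Esrp1* and *Zeb2*) on more than 1 probe. A probe well above background on at least 1 array is called measured here, and 9 of the 10 regulators were measured, 8 of them on both arrays. *Snai2* was not well above background on either array.

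The samples were 4T1 cells, a mouse mammary carcinoma line (strain label BALB/C) that was cultured without treatment and sorted with ALDEFLUOR, which makes cells with active aldehyde dehydrogenases (ALDH) fluoresce. The ALDH-positive population is labelled cancer stem cell, the ALDH-negative population anti cancer stem cell, names matched through the study's use of ALDH-positive for its stem-like cells, and each gave 1 RNA sample on 1 one-colour Agilent array of the same slide. The comparison asks which transcripts differ between cells of high and of low ALDH activity. No replicate check and no test were possible with a single array of each population, so every difference below is a difference between these 2 arrays.

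The epithelial side of the switch is held by OVOL and GRHL transcription factors and by the ESRP splicing factors, and the mesenchymal side by the ZEB and SNAIL (*Snai1*, *Snai2*) repressors. OVOL proteins are zinc finger repressors and the grainyhead-like proteins GRHL2 and GRHL3 activate genes of cell junctions, while ESRP1 and ESRP2 keep transcripts such as those of *Fgfr2* and *Cd44* in their epithelial splice forms. ZEB and SNAIL proteins bind E-boxes with the core CACCTG and repress epithelial genes such as *Cdh1*, and ZEB factors on the one side and OVOL and GRHL factors on the other are known to repress each other's genes.

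The sequences below show what the array read for the regulators with more than 1 measured probe, and where the letters of the ZEB and SNAIL E-box stand upstream of the regulators for which a match was found. The *Esrp1* probe of 60 bases lies at chr4:11284629-11284688, minus strand (NCBI37, positions from the array files). It is 24361 bases away from the brighter *Esrp1* probe, and read from its first base it holds no stop codon. The *Grhl2* probe of 60 bases lies at chr15:37239426-37239485, plus strand (NCBI37), 53653 bases away from the brighter *Grhl2* probe. In the promoter windows, capitals mark CACCTG.
Esrp1 probe: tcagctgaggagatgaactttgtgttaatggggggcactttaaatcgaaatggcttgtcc
Grhl2 probe: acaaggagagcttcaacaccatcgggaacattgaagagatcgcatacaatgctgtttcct
Grhl3 promoter: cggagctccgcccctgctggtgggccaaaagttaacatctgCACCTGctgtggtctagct
Snai1 promoter: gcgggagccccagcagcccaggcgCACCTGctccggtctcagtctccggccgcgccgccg

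The promoter windows are RefSeq sequence (GRCm38.p6) and reach from 250 bases before a transcript start to 50 after it. Of the 10 regulators, 4 had windows (*Ovol2*, *Grhl3* and *Snai1* 1 each and *Zeb2* 4), which makes 7 windows. CACCTG was searched on both strands and was in 2 of the 7, compared with 20.2% of all 32851 promoter windows. The printed stretch of *Grhl3*, chr4:135573633-135573692 on the minus strand, covers the 60 bases before the start and holds CACCTG with its first base at position -19, and another match began at position 9, after the start. The printed stretch of *Snai1*, chr2:167538045-167538104 on the plus strand, holds CACCTG with its first base at position -126. The E-box CACGTG, which CLOCK binds, was in none of the 7 windows and in 7.15% of all windows. The OVOL motif CCGTTA (both strands) was in none of the 7 and in 2.76% of all windows, and the GRHL motif AACCGGTT was in none of the 7 and in 0.146% of all windows. CACGTG and AACCGGTT read the same on both strands, and none of the motifs overlaps another in the printed stretches. These matches are letters in a window and say nothing of binding.

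All 9 measured regulators had a log2 ratio above 0, ALDH-positive over ALDH-negative, and 2 of them, *Grhl3* and *Esrp1*, were higher in ALDH-positive cells by the limits of the study. Of the alternative ways of processing that could have ended these calls, 8 of 9 did so for *Grhl3* and 3 of 10 for *Esrp1*. A gene counts as higher where the ratio reaches 1.5 and the Z-score reaches 2, and as lower where the ratio is at most 0.75 and the Z-score at most -2. The Z-score, which the methods do not define, compares a log2 ratio with those of the 250 next dimmer and the 250 next brighter probes, as the difference from their mean divided by their SD. Among all 13988 measured genes, 1.32% were higher and 2.03% lower, and none of the regulators was lower. By the ratio limit alone, 5.06% of the measured genes were higher and 6.14% lower, and of the regulators *Zeb1* joined the other two, on a signal not well above background on 1 array. A log2 ratio above 0 was also found for 60.6% of all measured genes. *Zeb1* counts as measured only through the ALDH-positive array, which by itself favours a log2 ratio above 0. With only probes well above background on both arrays, 8 of 8 regulators lay above 0, as did 60.8% of the genes. The median log2 ratio was 0.45 over the 6 regulators of the epithelial side, 0.14 over the 3 measured regulators of the mesenchymal side (0.096 without *Zeb1*) and 0.045 over all measured genes.

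**Figure D1:**
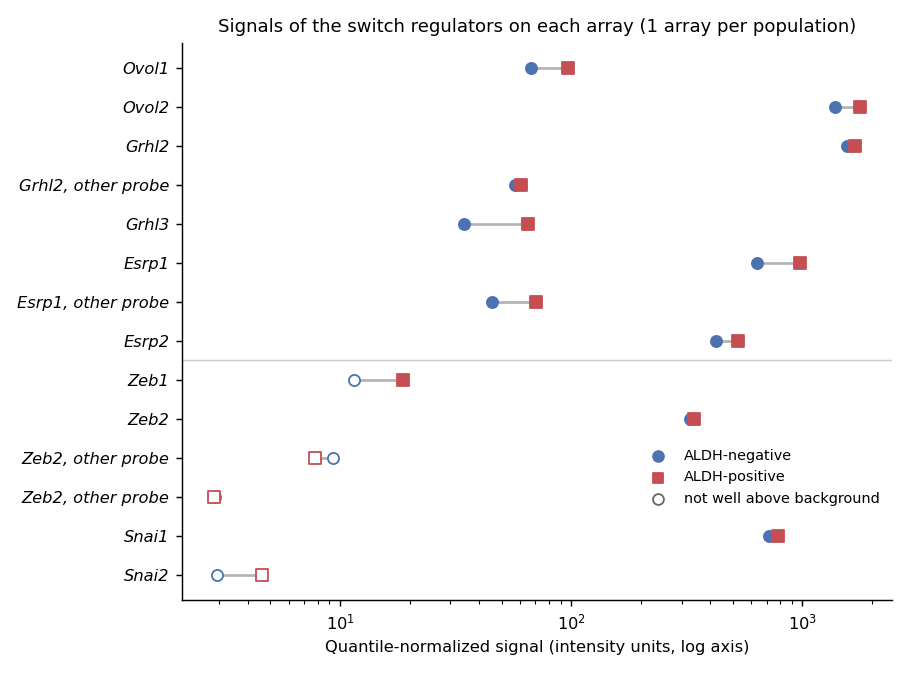
Quantile-normalized signal (intensity units, log axis) of each of the 14 probes in ALDH-negative (circles) and ALDH-positive cells (squares), with 1 array per population, and open marks for signals not well above background. The genes above the grey line are those of the epithelial side. The distance between the marks is widest for *Grhl3*, from 34.5 to 64.8, among the probes measured on both arrays. Levels of different probes are not comparable with each other.

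Of the OVOL repressors, neither passed the limits. *Ovol1* gave 66.7 intensity units on the ALDH-negative array and 97.3 on the ALDH-positive array, read by a probe at chr19:5549209-5549268 on the minus strand (NCBI37). Its ratio of 1.46 lay just under the ratio limit, with a log2 ratio of 0.54 (scanner error 0.22) and a Z-score of 1.4995. The scanner error combines the errors that the scanner software gives for both signals, leaves out the spread between cultures, and was 0.21 in the median measured probe. The *Ovol1* spot lay in the edge area of the array, that is, the final eighth of its rows or of its columns, in which 3.65% of the measured probes were higher compared with 0.682% elsewhere. The edge area differed in spread, with an SD of the log2 ratios of 0.88 compared with 0.51 elsewhere, and hardly in median (0.014 and 0.0155). The 213 other measured spots within 10 rows and columns of *Ovol1* had a median log2 ratio of -0.016, which does not show that spread. The part of the position in the *Ovol1* value was not tested.

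*Ovol2*, the paralog of *Ovol1*, gave 1387 on the ALDH-negative array and 1779 on the ALDH-positive array, on a probe at chr2:144131071-144131130, minus strand (NCBI37). The log2 ratio was 0.36 (error 0.20) and the ratio 1.28. The Z-score of 1.73 was larger than that of *Ovol1* although the ratio was smaller, because the log2 ratios of probes of similar brightness had an SD of 0.20 around *Ovol2* and of 0.38 around *Ovol1*. The log2 ratios of *Ovol1* and *Ovol2* differed by 0.18, less than the scanner error of that difference, 0.30.

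*Grhl3* had the largest log2 ratio of the regulators measured on both arrays. GRHL3 acts in the epidermal barrier and in wound closure. Its probe at chr4:135097991-135098050 on the minus strand (NCBI37) gave 34.5 on the ALDH-negative array and 64.8 on the ALDH-positive array. The ratio was 1.88, the log2 ratio 0.91 (error 0.25) and the Z-score 2.004, so that the gene was higher in ALDH-positive cells but lay almost on the Z-score limit. The probe was dim, and the log2 ratios of its neighbours in signal had an SD of 0.45. A log2 ratio as high was found for 2.49% of the measured genes.

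*Grhl2*, whose product keeps the E-cadherin and claudin genes active in epithelia, differed between the arrays by less than the scanner error. The brighter probe, at chr15:37293139-37293198 on the plus strand (NCBI37), had 1553 on the ALDH-negative array and 1686 on the ALDH-positive array, and its log2 ratio of 0.12 lay within the error of 0.20. The probe printed above gave 57.1 and 60.6, and its log2 ratio of 0.086 (error 0.23) lay close to that of the brighter probe. The difference between *Grhl3* and *Grhl2* was 0.79 on the log2 scale, with a scanner error of 0.32 and no replicate. It was smaller with normexp, where *Grhl3* had 0.38 and *Grhl2* 0.082, and without background correction, where they had 0.40 and 0.079.

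*Esrp1* was higher in ALDH-positive cells on its brighter probe, at chr4:11260208-11260267 on the minus strand (NCBI37). ESRP1 is the main epithelial splicing regulator together with ESRP2. The signal was 635 on the ALDH-negative array and 979 on the ALDH-positive array, with a ratio of 1.54, a log2 ratio of 0.62 (error 0.20) and a Z-score of 2.82. The probe printed above, far from it in the gene, gave 45.6 and 70.3 and the same log2 ratio of 0.62 (error 0.24). That probe passed the ratio limit but not the Z-score limit, with a Z-score of 1.38 among dimmer probes whose log2 ratios had an SD of 0.45. Both *Esrp1* probes were thus brighter in ALDH-positive cells by a ratio of 1.54 in this processing. A log2 ratio as high as that of *Esrp1* was found for 4.59% of the measured genes.

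*Esrp2* gave 421 on the ALDH-negative array and 524 on the ALDH-positive array, on a probe at chr8:108655089-108655148, minus strand (NCBI37). Its log2 ratio of 0.32 exceeded the error of 0.20, but the Z-score of 1.35 and the ratio of 1.24 did not pass. The difference between *Esrp1* and *Esrp2* was 0.31 on the log2 scale, with an error of 0.29. It was smaller with normexp and without background correction, where *Esrp1* had 0.54 and *Esrp2* 0.26 in each case.

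**Figure D2:**
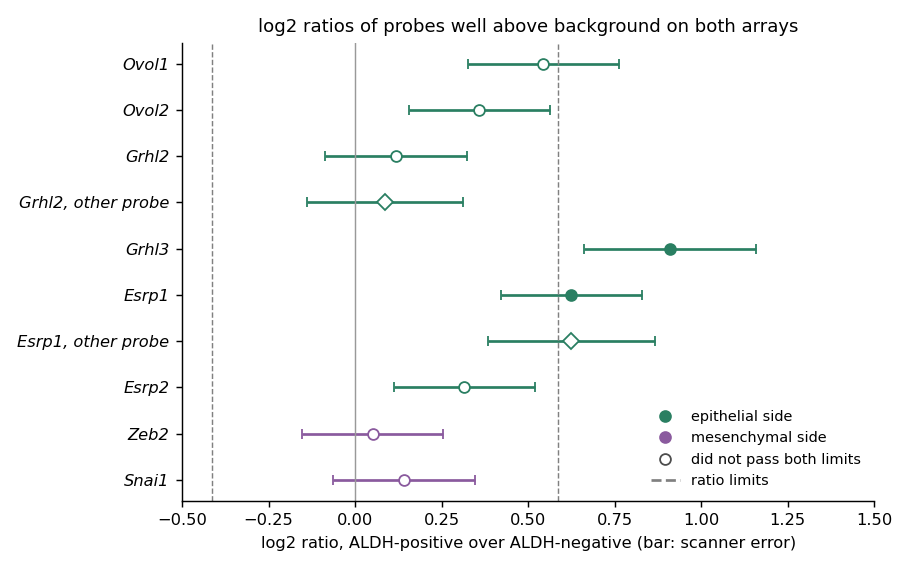
log2 ratio, ALDH-positive over ALDH-negative (horizontal axis), of the 10 probes that were well above background on both arrays, with bars for the scanner error of 1 array against 1 array and dashed lines at the ratio limits of 1.5 and 0.75. Green marks are genes of the epithelial side, purple marks genes of the mesenchymal side, diamonds the dimmer probes of a gene, and filled marks the probes past both limits. The 2 *Esrp1* probes sit at 0.62, and the bars of both *Grhl2* probes, *Zeb2* and *Snai1* cross 0.

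On the mesenchymal side, *Zeb1* was at the edge of detection. *Zeb1* encodes the E-box repressor that is most often used to mark the mesenchymal state. Its single probe gave 11.5 in ALDH-negative cells, not well above background, and of 18.7 in ALDH-positive cells, where it was well above background. The lowest signal well above background on the ALDH-negative array was 13.1, and the *Zeb1* signal in ALDH-positive cells was 1.42-fold that value in this processing. This bound leaves out the scanner error, which was 0.49 for the *Zeb1* log2 ratio of 0.70. The bound was 1.21-fold after alignment at the 75th percentile, 1.09-fold with normexp and 1.04-fold without background correction. The Z-score was 0.66, since probes this dim had log2 ratios with an SD of 1.16, and *Zeb1* did not pass the limits.

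*Zeb2*, its paralog, was read by 1 measured probe, at chr2:44842774-44842833 on the minus strand (NCBI37). The signals of 327 on the ALDH-negative array and 339 on the ALDH-positive array gave a log2 ratio of 0.050, within the error of 0.20. Another *Zeb2* probe, at chr2:44840038-44840097, had signals of 9.33 and 7.81. The remaining probe, at chr2:44965914-44965973, had signals of 2.87 and 2.86. Neither was well above background on any array, so they give no ratio. The sequence of the latter probe matched a *Zeb2* promoter window of RefSeq from position -176 to position -117, that is, before the start that the window belongs to, while the measured probe lies elsewhere in the gene.

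*Snai1* encodes SNAIL, which represses *Cdh1* at the start of an epithelial-mesenchymal transition. Its probe at chr2:167368073-167368132 on the plus strand (NCBI37) gave 714 on the ALDH-negative array and 787 on the ALDH-positive array. The log2 ratio of 0.14 lay within the error of 0.20, and the Z-score was 0.62. *Snai2*, which encodes SLUG, had signals of 2.93 and 4.58 on a probe at chr16:14709361-14709420, and neither was well above background. Its spot, too, lay in the edge area.

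**Figure D3:**
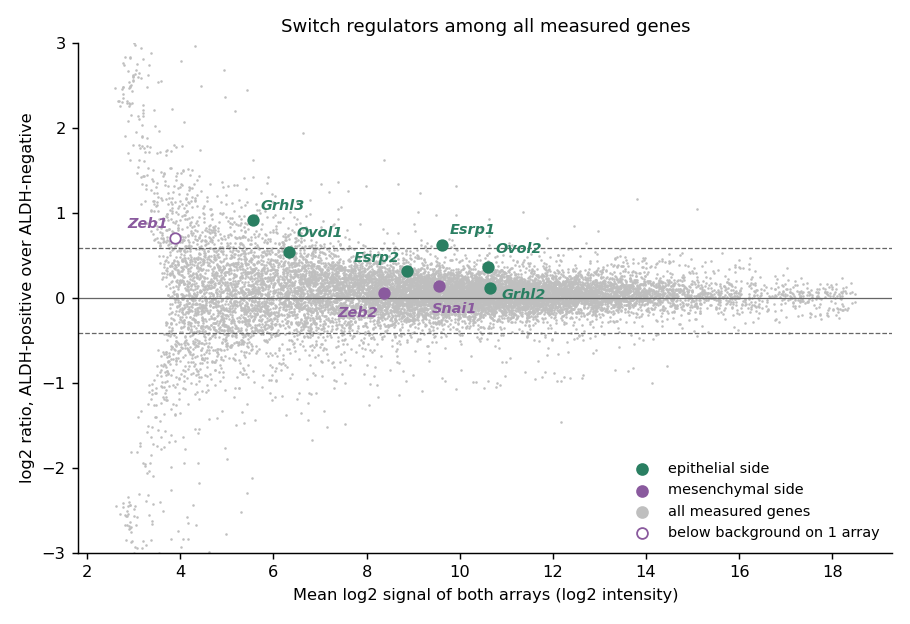
Mean log2 signal of both arrays (horizontal axis) and log2 ratio, ALDH-positive over ALDH-negative (vertical axis), of the 13988 measured genes in grey and of the 9 measured regulators in colour, with dashed lines at the ratio limits. The vertical axis ends at 3 on either side and leaves out 98 genes. The spread of the grey points is wide at low signals, where *Zeb1* and *Grhl3* lie, and narrow at the signals of *Esrp1* and *Ovol2*.

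Both arrays were of similar quality. Of the 55681 probes, 48.5% (ALDH-negative) and 49.4% (ALDH-positive) were well above background, no spot was saturated, and probes printed 10 times had a median SD of 0.059 and 0.047 (log2) within an array. The ALDH-positive array was brighter, with a median log2 ratio of 0.49 over the measured probes before normalization. The 11 measured probes of the regulators had log2 ratios from 0.46 to 1.27 before normalization, so that a value near 0 after it means a ratio close to that of the average probe. In bulk RNA, fewer cells of a type and less RNA per cell cannot be told apart.

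The log2 ratios of the regulators moved with the correction of the background, most for *Grhl3*, the dimmer *Esrp1* probe and *Ovol1* among the 10 probes measured on both arrays. *Grhl3* went from 0.91 to 0.38 with normexp background correction (a model of signal plus noise, with an offset of 50) and to 0.40 without background correction, and it passed the limits under neither. *Ovol1* went from 0.54 to 0.34 and 0.30. For *Esrp1* the log2 ratio was 0.54 under both corrections, under the ratio limit, with Z-scores of 2.66 and 2.67. The dimmer *Esrp1* probe, however, went from 0.62 to 0.30 and 0.31, so that the 2 probes no longer had the same ratio. *Ovol2*, *Esrp2*, *Grhl2*, *Zeb2* and *Snai1* each moved by less than their error. When the arrays were aligned at their 75th percentile only, *Esrp1* had a log2 ratio of 0.69 and *Grhl3* of 0.80, and the Z-score of *Grhl3* fell to 1.95. In each of the 7 alternatives that change log2 ratios, every regulator that had a value stayed above 0, as did 58.9% to 66.7% of all measured genes. This holds for the values that stand for the genes. The dimmer *Grhl2* probe had -0.0048 with the 75th percentile shift.

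**Figure D4:**
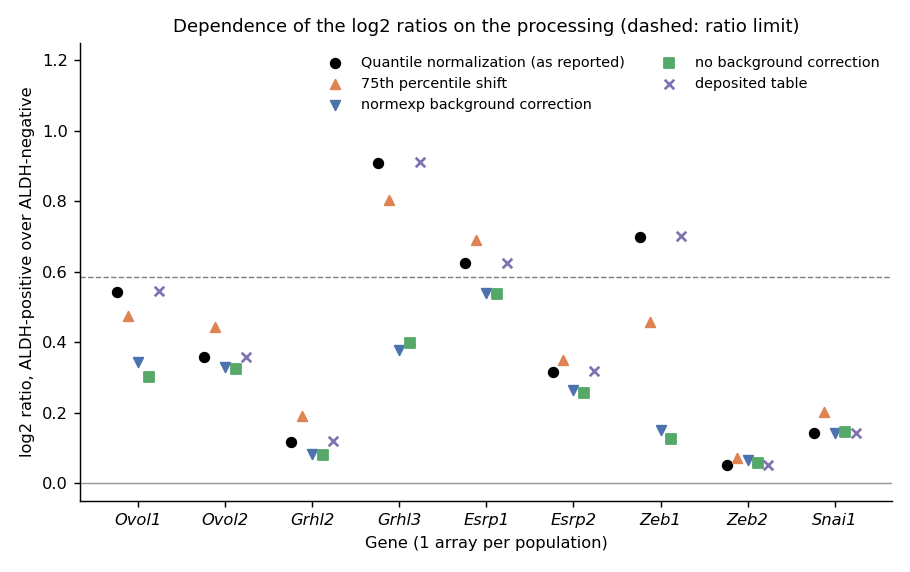
log2 ratio, ALDH-positive over ALDH-negative (vertical axis), of the 9 measured regulators with 1 array per population, as reported and after 4 changes of the processing, with a dashed line at the ratio limit of 1.5. *Zeb1* was not well above background in ALDH-negative cells. The marks of *Grhl3* spread from 0.38 to 0.91 and those of *Esrp1* from 0.54 to 0.69, and no mark lies below 0.

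The other genes of the pathway were taken from 10 lists. In the list of family relatives, 5 of 8 genes were measured and none was higher. *Ubp1*, a grainyhead-related factor, was lower, with signals of 208 on the ALDH-negative array and 118 on the ALDH-positive array (log2 ratio -0.81, error 0.21), on a spot in the edge area. *Tfcp2l1*, another relative, had a log2 ratio of 0.73 (error 0.22) with a Z-score of 1.95, and its other probe had 0.55. *Grhl1*, the remaining grainyhead-like gene, was dim, at 27.1 and 34.7, a log2 ratio of 0.35 (error 0.28). The median of the list, 0.22, was the value of *Tfcp2* on its brightest probe (error 0.21), and its other probe had -1.03.

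Epithelial genes listed as kept active by GRHL factors or repressed by ZEB and SNAIL factors were all measured, 25 of 25. Of these, 4 were higher, 16.0% compared with 1.32% of all measured genes, and none was lower, and the median log2 ratio was 0.33. *Rab25*, a small GTPase of epithelial vesicle traffic, had signals of 511 and 1002 (log2 ratio 0.97, error 0.20). *Ap1m2*, the epithelial subunit of a clathrin adaptor, had 116 and 210 (0.85, error 0.21). The tight junction genes *Cldn7*, with 4183 and 7525 (0.85, error 0.20), and *Cldn3*, with 6079 and 10451 (0.78, error 0.20), were also higher. *Cdh1*, the gene of E-cadherin and the classical target of both sides of the switch, gave 3383 and 3813, a log2 ratio of 0.17, within its error of 0.20. It was named after its values were seen, as was *Krt19*, a luminal keratin with a log2 ratio of 0.54 that passed the Z-score limit and not the ratio limit. On their brightest probes, the log2 ratios of all 25 genes lay above 0, the lowest at 0.0084. With a 75th percentile shift or with normexp, 24 of the 25 did so. The other probes of *Spint2* and *Dsp* had -0.18 and -0.064, and those of the remaining genes, where there were any, lay above 0. None of the 4 genes passed with a Z-score against all probes, where 1.501% of all measured genes were higher. The list was written with earlier results on epithelial genes of these arrays known, so it is not independent evidence of its direction.

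Of the mesenchymal target genes, 13 of 16 were measured, with a median log2 ratio of -0.071. *Tagln*, an actin-binding protein of smooth muscle, was higher, with signals of 1281 and 1966 (log2 ratio 0.62, error 0.20). *Cdh2*, the gene of N-cadherin, gave 45.2 and 16.9, a log2 ratio of -1.42 (error 0.33) with a Z-score of -1.88, and its other probe had -1.04. *Fn1*, the gene of fibronectin, had a log2 ratio of 0.31 (error 0.20). *Vim*, the intermediate filament gene most used for the mesenchymal state and named after its values were seen, had -0.13 (error 0.20). *Cdh2* was lower in 5 of the 12 alternatives, with log2 ratios from -1.58 to -0.45 over all of them. *Loxl2*, also named after its values were seen, had -0.18 (error 0.21) on its brightest probe and 1.55 on its other probe. Apart from *Tagln*, no gene of this list passed the limits on its brightest probe as reported here.

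The other EMT-inducing factors, 11 of 14 measured, held none that passed, with a median log2 ratio of 0.034. The values farthest from 0 among them were 0.58 for *Klf8* (error 0.23), 0.32 for *Foxc1* (error 0.20) and 0.27 for *Foxq1* (error 0.23). *Twist1*, named after its values were seen, gave 523 and 437, a log2 ratio of -0.26 (error 0.20). Of the other epithelial factors, 10 of 13 were measured with a median of 0.020. *Trp63*, the gene of p63, was lower, with signals of 3951 and 2775 (log2 ratio -0.51, error 0.20), on a spot in the edge area, where 4.19% of the measured probes were lower compared with 2.41% elsewhere. *Elf3* had 0.51 (error 0.21) and *Tfap2a* 0.29 (error 0.20), and neither passed.

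The cofactors, targets and inputs of the regulators held no gene past the limits on its brightest probe. The 13 corepressors that work with ZEB and SNAIL factors were all measured, with a median log2 ratio of 0.037 and the farthest values at 0.38 for *Sin3a*, 0.22 for *Kdm1a* and -0.17 for *Bmi1*. All 14 other splicing regulators of EMT were measured, with a median of -0.047, and the farthest values were -0.33 for *Srsf1*, -0.29 for *Mbnl1* and 0.18 for *Rbm47*. The 12 transcripts that ESRP proteins splice had a median of 0.12, with 0.38 for *Arhgef11*, 0.23 for *Nf2* and 0.20 for *Scrib*. Probes of this array give the level of a transcript and not its splice form, so the splicing itself was not analysed here. The 12 TGF-beta inputs had a median of 0.090, with 0.28 for *Tgfb2* (0.28 on its other probe), 0.25 for *Tgif1* and 0.20 for *Tgfb3*. Probes differed more for *Smad3* (0.19 on the brightest and 0.61 on the other) and *Tgfbr1* (-0.036 and 0.51). The same held for *Tgfbr2* (-0.059 and -0.44) and *Smad4* (0.076 and -0.24). Of 8 genes of Snail protein turnover, 7 were measured, with a median of 0.096, and the farthest values were 0.31 for *Fbxl14*, 0.29 for *Btrc* and -0.20 for *Pak1*. *Fbxl5*, a further gene of this list, had -0.038 on its brightest probe and 3.29 on its other probe, and it was higher with the median over both.

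**Figure D5:**
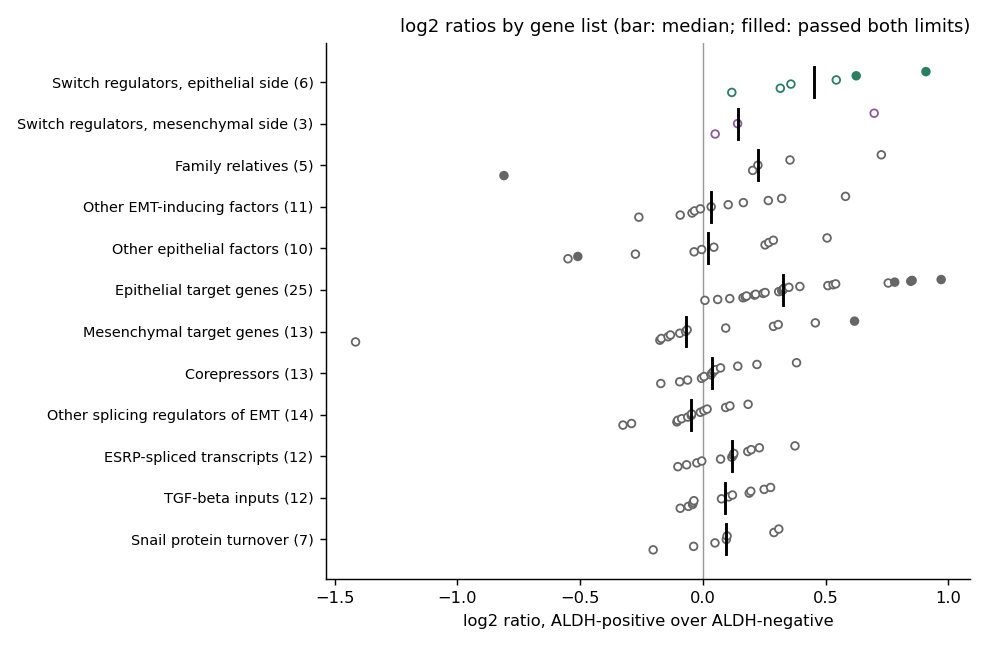
log2 ratio, ALDH-positive over ALDH-negative (horizontal axis), of the measured genes of each list, with the number measured in brackets, 1 point per gene, a black bar at the list's median, and filled points for genes past both limits. The regulators of the epithelial side have their median at 0.45 and the epithelial target genes at 0.33. The median of the mesenchymal target genes is -0.071, and the medians of the remaining lists lie between -0.047 and 0.22. *Zeb1* and a few other points come from probes not well above background on 1 array.

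Markers of cell types were set beside these values. Of 7 luminal markers of the mammary epithelium, 6 were measured, none passed and the median log2 ratio was 0.18. Of 7 basal markers, 6 were measured, *Krt14* was higher (695 and 1366, log2 ratio 0.98, error 0.20) and *Trp63* lower, and the summed signal went from 4826 to 4365, of which *Trp63* made up 3951 and 2775. *Krt17* gave 90.6 and 137.8, a log2 ratio of 0.60 (error 0.21) with a Z-score of 1.69. *Krt5*, *Acta2* and *Mylk* were dim and had 0.054, -0.071 and -0.12, each within its error. Among the leukocyte markers 5 of 10 were measured, with a summed signal of 10431 on the ALDH-negative array and 6841 on the ALDH-positive array, and *Itgam*, an integrin of myeloid cells, was lower (7301 and 3795, log2 ratio -0.94, error 0.20). Its other probes had -0.67 and 0.38, and it was not lower with the median over its probes, and the other measured markers had 0.44 (*Cd68*), 0.27 (*Cd14*), -0.34 (*Csf1r*) and -0.47 (*Cd3e*). The defining marker *Ptprc* was not well above background on any array, nor were *Ly6g*, *Adgre1* and *Lyz2*. Of the endothelial markers 2 of 6 were measured, *Kdr* was lower (-0.43, error 0.20) and made up 7292 of the summed signal of 7319 and 5394 of 5426, and *Cdh5*, *Tek*, *Vwf* and *Emcn* were not well above background on any array. *Kdr* was not lower in 5 of the 12 alternatives, among them the 75th percentile shift and both changes of the background correction. Of the fibroblast markers 5 of 9 were measured, *Postn* was higher (0.96, error 0.22) on a spot in the edge area, the summed signal went from 289 to 353, and *Col3a1*, *Pdgfrb*, *Dcn* and *Lum* were not well above background on any array. *Zeb2* and *Zeb1* are also expressed in leukocytes and fibroblasts of tissues. Both populations here were sorted from a cultured carcinoma line, so the marker signals do not measure a content of such cells. The source of these signals was not tested. Among the 9 isoforms that ALDEFLUOR reads, 7 were measured and none passed, with a median of 0.11. *Aldh3a1* had 0.025 on a spot in the edge area and 0.62 on its other probe, and it was higher where the edge area was left out. *Aldh5a1* had 0.23 (error 0.20), *Aldh1b1* 0.14 (error 0.38) and *Aldh1a1* 0.14 (error 0.37). The last 2 were dim, at 19.1 and 21.0 for *Aldh1b1* and 17.8 and 19.6 for *Aldh1a1*. *Aldh2*, with the largest signals of these isoforms, gave 6244 and 6275, a log2 ratio of 0.0072 (error 0.20).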

How the data were processed

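Labelled RNA (Cy3) of each sorted 4T1 population was hybridised to 1 Agilent one-colour array. The authors obtained the intensity of each spot, less its background, with Feature Extraction (9.5.1.1 per the methods and labels, 10.7.1.1 per the scanner files). For the RNA, the methods name the RNeasy kit and the labels the ReliaPrep kit. The authors' deposited table holds quantile-normalized intensity for 55681 probes and was used as an alternative.

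From the deposited scanner files, control spots and outlier spots (135 and 116) were left out, the log2 processed signals of repeated spots were averaged, signals under 1 were set to 1, and the 55681 probes were quantile-normalized over both arrays. The brightest measured probe stands for a gene. Symbols of other genes came from RefSeq (GRCm38.p6), which named 27229 probes, or else from the array files, which also give the probe positions (NCBI37). A gene not well above background on 1 array has only a bound, set by the lowest normalized signal well above background. No test was made, since each group had 1 array; their number limits the precision.

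The regulators and the gene lists were chosen with earlier results of these data known. The text names all regulators and, from each list, genes past the limits (up to 5) and then those farthest from 0 on both arrays (up to 3 in all). Some genes that the rule allows were left unprinted. *Cdh1*, *Krt19*, *Spint2*, *Dsp*, *Vim*, *Loxl2*, *Twist1*, *Aldh3a1*, *Fbxl5*, *Cd14* and *Csf1r* were added after their values were seen. So were *Tfcp2*, *Smad3*, *Smad4*, *Tgfbr1*, *Tgfbr2*, *Krt5*, *Acta2*, *Mylk* and *Aldh2*. The 12 alternatives changed the normalization, the background correction (normexp in limma 3.58.1, R 4.3.3), the source table, the filter, the array area, the Z-score window (100, 500 or all probes), the ratio limits and the choice of probe. Python 3.11.15, numpy 2.4.6 and pandas 2.3.3 were used.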

Additional observations from a re-analysis of the deposited data

How the results depend on the processing

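The number of regulators higher in ALDH-positive cells, 2 as reported, depended on the processing. It was 1 with a 75th percentile shift, 1 with the deposited table (where *Grhl3* had a Z-score of 1.9995), 1 where a probe had to be well above background on each array, and 1 with a Z-score window of 100 or of 500 probes on either side. It was 0 with normexp background correction, 0 without background correction and 0 with a Z-score against all probes. With the ratio limits alone it was 3. No regulator was lower under any alternative, and the medians of the epithelial side (0.31 to 0.46) and of the mesenchymal side (0.096 to 0.20) moved by less than the scanner error. *Zeb1* had a log2 ratio of 0.15 with normexp and of 0.12 without background correction. No result changed sign among those past the limits. The limit of 1.5 both ways and the ratio limits alone could not end a call of higher, nor could the median over probes for *Grhl3*, which has 1 probe. The cause of these changes was not tested.

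No paired analysis was possible because each population had 1 array. For the same reason no replicate was left out in turn. The values of *Zeb1*, *Snai2* and 2 of the 3 *Zeb2* probes are limited by signals not well above background.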
